A study of Mus musculus with 12 samples.

Results

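Chemokines are small secreted proteins that guide cells along gradients, and they act through a family of receptors and are removed by scavengers. The genes were chosen by name alone: ligands with symbols of the Ccl, Cxcl and Cx3cl series, signalling receptors of the Ccr, Cxcr and Cx3cr series, and the 4 atypical receptors Ackr1 to Ackr4. Of 55291 gene symbols in the deposited count tables, 58 met that rule, and 43 of them had at least 10 counts in 3 or more of the 12 libraries. RNA was sequenced from cells that the labels call Vecad+ endothelial cells, positive for VE-cadherin, of bone marrow and lung from VECadCre-tdTomato mice, in which a Cre recombinase under a VE-cadherin (Cdh5) promoter drives a red fluorescent reporter. Recipients of acute myeloid leukaemia cells labelled AML Trp53(R172H/Δ), which carry a mutant and a deleted copy of the tumour suppressor Trp53, were compared with normal controls. For each tissue there were 3 control and 3 AML libraries, and all mice of all groups carried the VECadCre-tdTomato alleles. The labels give no age, dose or time and do not say that the 3 libraries of a group came from separate mice, so the p-values below measure the spread between these libraries, which may be technical.

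Chemokine ligands are named for the spacing of their first cysteines (CC, CXC and CX3C) and signal through G protein-coupled receptors of the matching class. On endothelium they are displayed to passing leukocytes, which then stop and cross the vessel wall, and in the marrow they also hold blood cells in place. Atypical receptors bind chemokines without G protein signalling and carry, store or degrade them, and vessels are among their main sites.

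The libraries held 12.8 to 39.2 M counts each. Levels are given as CPM (counts per M counts, after TMM scaling of the library totals), in the order of libraries 1, 2 and 3 of each group. The endothelial label was checked with 12 marker genes, all with counts in every group. Their summed share of the counts was 0.0147 to 0.0210% in marrow controls, 0.0195 to 0.0242% in marrow AML, 0.196 to 0.647% in the lung control group and 0.0252 to 0.0793% with AML in the lung. Cdh5, the gene of VE-cadherin itself, averaged 4.91 to 0.634 CPM from marrow control to marrow AML (-2.90 ± 0.82, adjusted p = 0.0141; log2 fold change) and 188 to 15.9 CPM from lung control to lung AML (-3.56 ± 0.74, adjusted p = 0.0325). Without lung control 2 the lung value was -2.76 and no longer called (adjusted p = 0.125), and it was not called without lung control 3, AML 1 or AML 3 either (adjusted p = 0.050, 0.0992 and 0.159). The 10 lung epithelium markers held 14.6 to 18.2% of the counts in the lung control group and 19.2 to 21.6% with AML in the lung. In every library the endothelial sum was below that of another cell type, lung epithelium in the lung and stromal and osteolineage cells in the marrow. The libraries are therefore described by their labels, and a gene's value is its share of all RNA sequenced in a library, in which fewer cells of a type and less RNA per cell cannot be told apart.

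**Figure D1:**
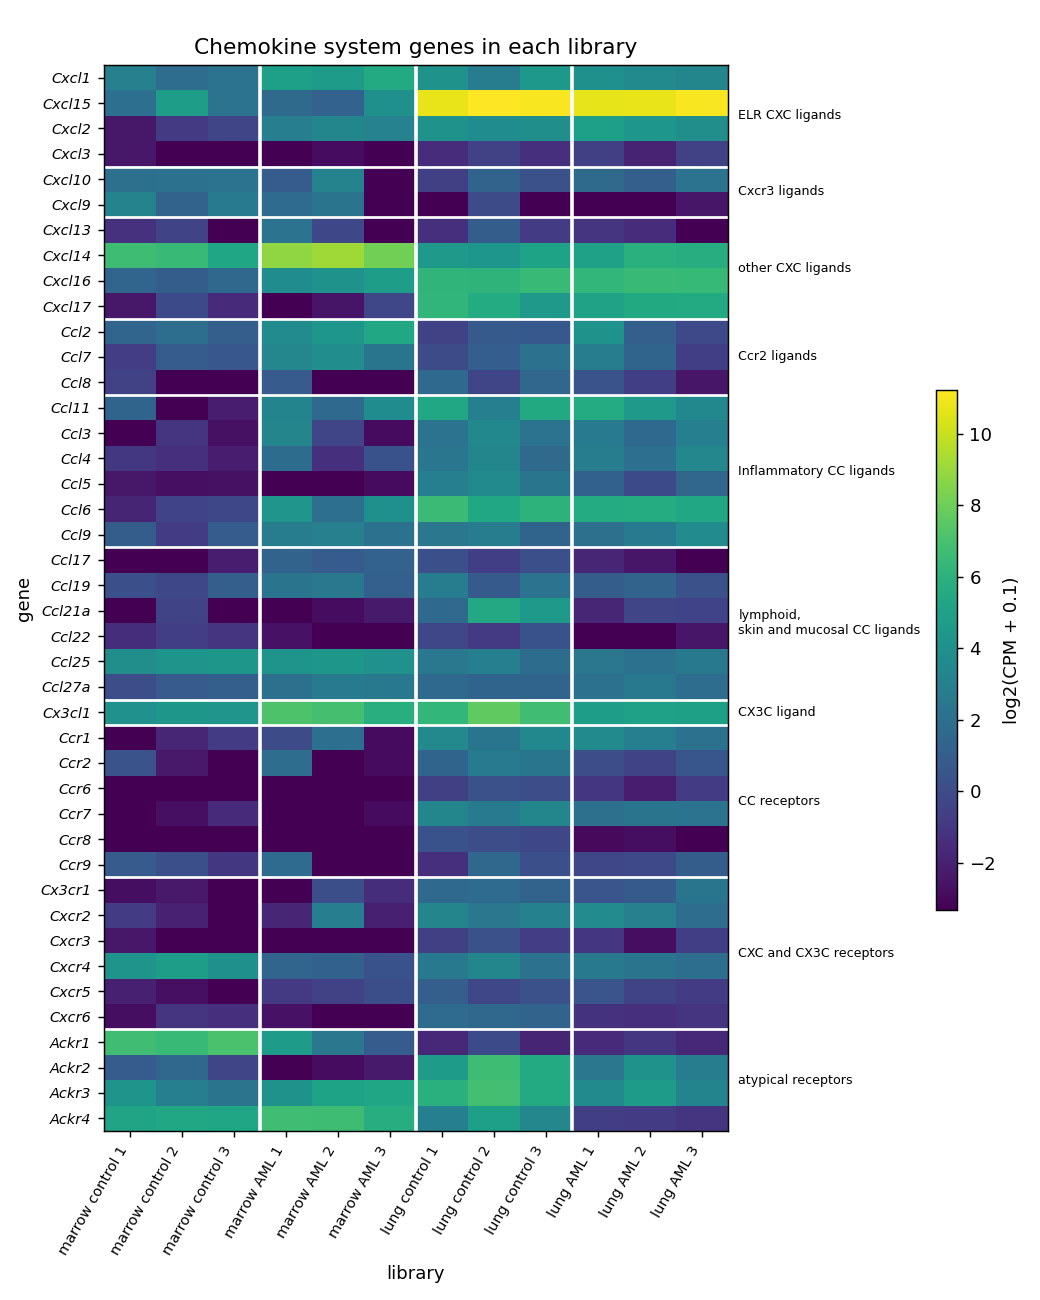
Level of 42 chemokine system genes (rows, grouped by role) in the 12 libraries (columns, 3 per group), as log2(CPM + 0.1) on the colour scale. Cxcl15 is the brightest row in the lung libraries, Cxcl14 in the marrow AML libraries, and Ackr1 is brightest in the 3 marrow controls.

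The leading genes differed between marrow and lung, and in part between marrow controls and marrow AML. Compared per kb of exon, the highest mean levels in marrow controls were those of Ackr1 (79.2 CPM per kb), an atypical receptor that binds inflammatory chemokines on venules and red cells, Cxcl14 (41.9), a ligand made by epithelial and stromal cells, and Cxcr4 (11.3), a receptor that retains blood cells in the marrow. In marrow AML the order began with Cxcl14 (237 CPM per kb), Cx3cl1 (27.2), Ccl2 (21.5) and Cxcl1 (18.4), all of them ligands. In lung controls Cxcl15 (972 CPM per kb), a ligand of lung epithelium, stood far above Cxcl17 (64.9), a mucosal ligand, and Ccl6 (38.4), a ligand of Ccr1. Lung AML had the same leading pair, Cxcl15 at 862 and Cxcl17 at 54.8 CPM per kb. The 58 genes of the name rule together held 0.0298 to 0.0356% of the counts in marrow controls and 0.0738 to 0.127% in marrow AML. They held 0.221 to 0.306% in the lung control group and 0.186 to 0.231% with AML in the lung. Cxcl15 alone made up 73.3 to 77.4% of that sum in control lungs and 79.0 to 84.7% in lungs with AML.

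The first comparison asked how the chemokine genes of the marrow differ between transplanted and normal mice. Ligands were mostly higher in marrow AML, while Cxcr4, Ackr1 and Ackr2 were lower. By the edgeR quasi-likelihood test, with p-values adjusted over all 18147 genes tested and calls made at an adjusted p under 0.05, 17 of the 43 genes were called higher and 6 lower. Over all genes tested, 20.4% were called higher and 23.5% lower. Of the 26 ligands, 14 were called higher and 1 lower, of the 13 signalling receptors 1 higher and 3 lower, and of the 4 atypical receptors 2 higher and 2 lower. The median log2 fold change was 1.38 over the 43 genes (1.68 with bounds), 2.28 (2.34) over the ligands and 0.00 (0.67) over the receptors, against -0.11 over all genes. For the values in brackets, genes near 0 counts were set at their ratio or bound. Genes with 3 or fewer counts over each of the groups compared, such as Ccr6, Ccr8, Cxcr3 and Cxcl3, were left out of them. Of the 23 calls, 11 held without each of the 6 libraries in turn, and these were Cxcl1, Cxcl2, Cxcl14, Cxcl16, Ccl6, Ccl17, Ccl27a, Cx3cl1, Cxcr4, Ackr1 and Ackr2. Scaling by library totals alone shifted the median of all genes by 0.28 and the share of higher among all calls from 46.4% to 61.2%, and it gave 18 higher and 6 lower chemokine genes.

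ELR CXC ligands carry a glutamate-leucine-arginine motif and attract neutrophils through Cxcr2. Cxcl1, Cxcl2 and Cxcl3 lie together on chromosome 5 of GRCm38 (Cxcl1 at 90891241 to 90893115, Cxcl2 at 90903871 to 90905938 and Cxcl3 at 90786103 to 90789600, + strand), and the 100 bases printed for each end at -5, -29 and -1 from the RefSeq start, leaving out bases that GENCODE puts in the transcript. They are shown because the same 9-letter match, GGANTTTCC, a form of the NF-kappaB site, in capitals, lies at a like distance in all 3. RefSeq promoters (GRCm38.p6) are read 5′ to 3′ along the gene, at chr5:90891141-90891240, chr5:90903771-90903870 and chr5:90786001-90786100, + strand.
Cxcl1: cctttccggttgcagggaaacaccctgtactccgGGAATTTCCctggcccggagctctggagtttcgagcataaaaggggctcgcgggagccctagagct
Cxcl2: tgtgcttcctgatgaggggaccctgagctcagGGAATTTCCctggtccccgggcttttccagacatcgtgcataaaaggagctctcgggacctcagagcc
Cxcl3: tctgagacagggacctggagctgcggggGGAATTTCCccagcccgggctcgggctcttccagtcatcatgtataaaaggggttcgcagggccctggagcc
Counted from the start, the match begins at -70 in Cxcl1, -96 in Cxcl2 and -72 in Cxcl3. Both strands of the 250 bases before the start were searched. GGANTTTCC occurs there in 1.07% of 32851 promoters and in 1.25% of the 27025 genes that have one. Among the 43 genes of the name rule with a promoter in the table (kept or not), 5 hold it, the other two being Cxcl10 and Ccr3. A match is a description of the letters and not a measured binding site.

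Cxcl2 and Cxcl1 rose in marrow AML, while Cxcl3, with the same match, was near 0 in both marrow groups. Cxcl2 had 0.0931, 0.452 and 0.719 CPM in marrow controls and 7.45, 10.3 and 8.72 CPM in marrow AML (log2 fold change 4.40 ± 0.57, adjusted p = 0.000175). The AML libraries were all far above the controls, and control 1 was the lowest. Without marrow control 3 the log2 fold change was 5.0. Cxcl1 had 8.05, 3.52 and 4.55 CPM in controls and 29.8, 26.5 and 47.1 CPM in AML (log2 fold change 2.68 ± 0.47, adjusted p = 0.000933), again with no overlap. Cxcl3 had 2 counts in the 3 controls together and 1 in the 3 AML libraries, at or under the floor of 3 counts, so no fold is given. Cxcl15 had 3.82, 28.5 and 4.49 and 3.11, 2.29 and 15.7 CPM in the same order (log2 fold change -0.79 ± 0.80, adjusted p = 0.446). Its highest marrow values, in control 2 and AML 3, were in the libraries with the largest summed lung epithelium share of their groups. That share reached 0.228% in control 2 and 0.183% in AML 3 and was 0.0366 to 0.0638% in the other 4, and its part in the level of Cxcl15 was not tested. Their receptor Cxcr2 was at 0.465, 0.151 and 0 CPM in controls and 0.194, 7.26 and 0.140 CPM in AML (log2 fold change 3.55 ± 1.44, adjusted p = 0.0662), high in AML 2 alone.

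The ligands of Cxcr3 are classical interferon-induced chemokines that attract activated T cells, and neither of the 2 kept was called. The Cxcl10 promoter (chr5:92349020-92349119, − strand, RefSeq, GRCm38.p6) is printed because it is the only one among these genes with both motifs searched, GAAANNGAA, a form of the interferon response element, and GGANTTTCC (here on the other strand).
Cxcl10: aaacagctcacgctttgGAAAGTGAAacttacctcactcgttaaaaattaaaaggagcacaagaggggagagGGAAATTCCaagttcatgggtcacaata
The capitals mark GAAANNGAA at -213 and the NF-kappaB type match at -158 from the start. GAAANNGAA occurs in 7.13% of the 32851 promoters, in 8.18% of the 27025 genes and in 8 of the 43 chemokine genes with one (Ccl1, Ccl3, Ccl19, Ccr2, Cxcl9, Cxcl10, Cxcl14 and Cxcr1). Cxcl10 had 3.96, 4.37 and 4.49 CPM in marrow controls and 1.81, 8.82 and 0 CPM in marrow AML (log2 fold change -0.27 ± 1.20, adjusted p = 0.887). The controls were close together, whereas the AML libraries ran from 0 to above all controls. Cxcl9 had 8.80, 2.41 and 6.35 and 3.24, 4.70 and 0 CPM (log2 fold change -1.15 ± 1.59, adjusted p = 0.586) and was likewise at 0 in AML 3. Exons of Cxcl10 overlap Art3 on the opposite strand, and counting ignored the strand per the file names, so reads of the shared stretch cannot be told apart. Art3 had 3.91, 2.86 and 6.71 CPM in controls and 29.7, 16.3 and 50.6 CPM in AML, highest in AML 3, where Cxcl10 was at 0.

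Among the other CXC ligands, Cxcl14 and Cxcl16 rose, and Cxcl13 and Cxcl17 were not called. Cxcl14 had 104, 88.4 and 36.7 CPM in controls and 449, 574 and 278 CPM in AML (log2 fold change 2.5 ± 0.42, adjusted p = 0.000747). Every AML library was above every control, and the lowest of each group was library 3. Cxcl16, a membrane-anchored ligand of Cxcr6 that also takes up oxidised lipoprotein, had 2.56, 1.86 and 2.94 CPM and 13.5, 17.5 and 27.8 CPM (log2 fold change 3.0 ± 0.28, adjusted p = 3.07e-05). It had the smallest adjusted p of the 43 genes in this comparison. Its exons overlap Zmynd15 on the opposite strand, which had 0, 0.502 and 0 CPM in controls and 0, 5.77 and 0 CPM in AML, so that it was at 0 in 2 of the 3 AML libraries with high Cxcl16. Cxcl13, the B cell attractant that acts on Cxcr5, had 0.326, 0.703 and 0 and 4.60, 0.802 and 0 CPM (log2 fold change 2.34 ± 1.66, adjusted p = 0.278). Cxcl17 had 0.0931, 0.854 and 0.240 and 0, 0.0764 and 0.768 CPM (log2 fold change -0.33 ± 1.0, adjusted p = 0.823).

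**Figure D2:**
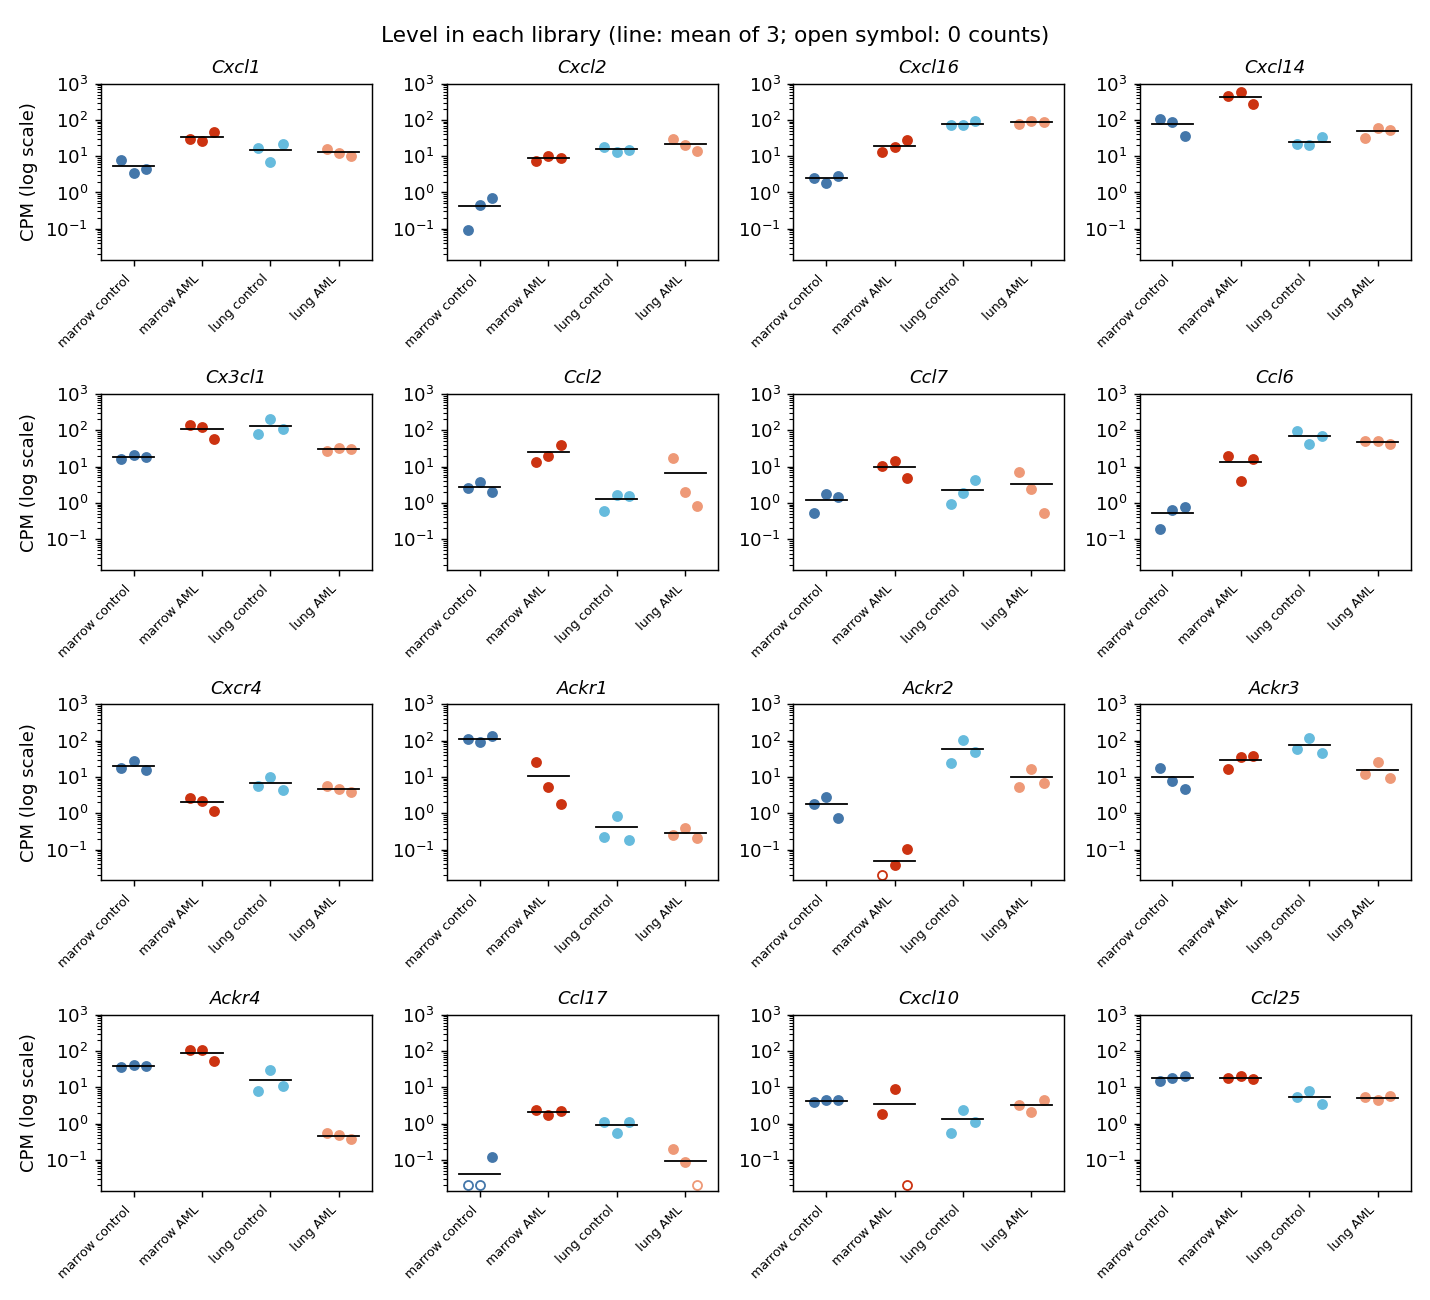
CPM of 16 chemokine system genes in each library (points, log axis), with a line at the mean of the 3 libraries and an open symbol at the bottom for 0 counts. The marrow AML points of Cxcl1, Cxcl2, Cxcl14, Cxcl16, Cx3cl1, Ccl2, Ccl6 and Ccl7 lie above all marrow control points, those of Cxcr4, Ackr1 and Ackr2 lie below them, and Ackr4 drops under 1 CPM in lung AML alone.

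Ccr2 ligands recruit monocytes, and Ccl2 and Ccl7, neighbours on chromosome 11 (Ccl2 at 82035571 to 82037453 and Ccl7 at 82045712 to 82047525), rose in marrow AML. Ccl2 had 2.56, 3.72 and 2.04 CPM in controls and 13.1, 19.7 and 40.6 CPM in AML (log2 fold change 3.14 ± 0.97, adjusted p = 0.0220), and Ccl7 had 0.512, 1.76 and 1.44 and 10.4, 13.8 and 4.96 CPM (log2 fold change 2.97 ± 0.93, adjusted p = 0.0229). The groups did not overlap for either gene, but neither call held without each library in turn. Ccl2 was not called without marrow control 1, 2 or 3 or AML 3 (adjusted p = 0.0684, 0.0517, 0.0751 and 0.0576; log2 fold change 2.57 without AML 3). Ccl7 was not called without control 1, control 3 or AML 2 (adjusted p = 0.0795, 0.0587 and 0.0528). Ccl8 was at 0.605, 0 and 0 and 1.68, 0 and 0 CPM and was not called (log2 fold change 1.34 ± 1.85, adjusted p = 0.587). Their receptor Ccr2, found on monocytes, had 1.21, 0.10 and 0 CPM in controls and 3.56, 0 and 0.0349 CPM in AML (log2 fold change 1.38 ± 1.64, adjusted p = 0.523), with AML 1 far above the other two.

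Of the 6 kept inflammatory CC ligands (Ccl3, Ccl4, Ccl5, Ccl6, Ccl9 and Ccl11), 5 were called higher in marrow AML, and only the call of Ccl6 held without each library. Ccl6 had 0.186, 0.653 and 0.779 CPM in controls and 19.4, 3.90 and 15.8 CPM in AML (log2 fold change 4.61 ± 0.66, adjusted p = 0.000308), with the lowest AML library above the highest control. Ccl9, its neighbour on chromosome 11 and like it a ligand of Ccr1, had 1.86, 0.502 and 1.80 and 6.99, 7.94 and 4.40 CPM (log2 fold change 2.21 ± 0.65, adjusted p = 0.0173) and was lost without control 2 (adjusted p = 0.0565). Ccl3 and Ccl4, macrophage inflammatory proteins, were carried by AML 1. Ccl3 had 0, 0.352 and 0.0599 CPM in controls and 9.91, 0.726 and 0.0349 CPM in AML (log2 fold change 4.62 ± 1.61, adjusted p = 0.0370), and 1.42 without AML 1 (adjusted p = 0.375). It was also not called without control 1 or 3 (adjusted p = 0.104 and 0.110), while the log2 fold change was 6.77 without control 2 and 5.21 without AML 3. AML 3 lay within the range of the controls. Ccl4 had 0.419, 0.301 and 0.120 and 3.43, 0.306 and 1.15 CPM (log2 fold change 2.48 ± 0.88, adjusted p = 0.0404) and was not called without AML 1 (1.35, adjusted p = 0.190) or without control 1, 2 or 3 (adjusted p = 0.0635, 0.0996 and 0.122). Ccl11, or eotaxin, which attracts eosinophils through Ccr3, had 2.51, 0 and 0.120 and 9.19, 3.09 and 13.2 CPM (log2 fold change 3.23 ± 1.21, adjusted p = 0.0484). Its log2 fold change was 7.14 without control 1, and it was not called without control 2, control 3, AML 1 or AML 3 (adjusted p = 0.108, 0.133, 0.0706 and 0.0983). Ccl5 had 4 counts over the controls and 1 over the AML libraries and was not called (adjusted p = 0.183).

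Ccl22, Cx3cl1 and Ccl17 stand in a row on chromosome 8 (94745590 to 94751699, 94772009 to 94782427 and 94810453 to 94812036, + strand), and in marrow AML the outer pair, both ligands of Ccr4, moved in opposite directions. Cx3cl1, the only CX3C ligand, is anchored on endothelial and other cells and binds Cx3cr1 on monocytes. It had 16.5, 20.7 and 18.9 CPM in controls and 140.2, 124 and 56.8 CPM in AML (log2 fold change 2.52 ± 0.38, adjusted p = 0.000400), so the lowest AML library was above the highest control. Ccl17 had 2 counts over the 3 controls, all in control 3, and 2.33, 1.76 and 2.27 CPM in the AML libraries (ratio 60.7, 95% counting interval 16.5 to 506; adjusted p = 0.00323). Without control 3, where the controls have no count, it was at least 28.9-fold higher, taking 3 counts in the whole group as the floor. Without control 1 or 2 the ratio was 38.3 or 39.9. Ccl22 had 0.279, 0.553 and 0.359 CPM in controls and 1 count over the AML libraries, and it was lower (ratio 27.8, 95% counting interval 4.52 to 1146; adjusted p = 0.0182). That call was lost without control 2, AML 2 or AML 3 (ratio 22.1, 17.5 and 16.5; adjusted p = 0.0578, 0.0537 and 0.0501), and without AML 1, which holds the count, the bound was at least 7.24-fold lower.

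Of the ligands that direct lymphocytes to lymph nodes, skin and gut, Ccl27a rose beside Ccl17, and Ccl19, Ccl21a and Ccl25 were not called. Ccl27a, a skin ligand of Ccr10, had 0.977, 1.71 and 1.98 CPM in controls and 4.01, 5.92 and 5.86 CPM in AML (log2 fold change 1.76 ± 0.45, adjusted p = 0.00815). Its exons overlap Il11ra1 on the opposite strand, which went from 18.4, 9.04 and 9.46 to 35.3, 42.5 and 126 CPM. Counting without strand cannot tell reads of the shared stretch apart. Ccl27a also has a near-identical copy, Ccl27b, listed at 0 counts, so how reads were split between them is uncertain. Ccl19, a ligand of Ccr7, had 1.07, 0.804 and 1.98 and 4.79, 5.46 and 2.06 CPM (log2 fold change 1.68 ± 0.66, adjusted p = 0.0589). Ccl25, the ligand of Ccr9, had 14.7, 18.4 and 20.7 CPM in controls and 18, 20.7 and 16.4 CPM in AML (log2 fold change 0.04 ± 0.32, adjusted p = 0.947), levels that overlapped. Exons of Ccl25 overlap Elavl1 on the opposite strand.

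Most signalling receptors were low in the marrow libraries, and the largest exception was Cxcr4. Cxcr4 fell, from 18.2, 27.3 and 15.6 CPM in controls to 2.59, 2.21 and 1.15 CPM in AML (log2 fold change -3.36 ± 0.47, adjusted p = 0.000267). Every AML library was under every control. Cxcr5, the receptor of Cxcl13 on B and follicular T cells, rose from 0.140, 0.0502 and 0 to 0.453, 0.611 and 1.01 CPM (log2 fold change 3.29 ± 0.90, adjusted p = 0.0121). The log2 fold change was 4.46 without control 1, and the call was lost without control 2 (adjusted p = 0.0517). Exons of Cxcr5 overlap Bcl9l on the opposite strand, which had 3.91, 3.07 and 4.19 CPM in controls and 10.2, 10.8 and 10.3 CPM in AML. Cxcr6, the receptor of Cxcl16, had 13 counts over the controls and 1 over the AML libraries and was called lower (ratio 15.7, 95% counting interval 2.36 to 669; adjusted p = 0.0232). It was not called without control 2 or 3 or AML 2 or 3 (ratio 11, 13.6, 9.87 and 9.32; adjusted p = 0.0776, 0.0559, 0.0648 and 0.0627), and without AML 1 it was at least 4.09-fold lower. Cx3cr1 had 0.0465, 0.10 and 0 and 0, 1.03 and 0.279 CPM and Ccr1 0, 0.201 and 0.479 and 0.906, 3.93 and 0.0349 CPM, neither called (adjusted p = 0.0728 and 0.0964). Ccr6 and Ccr8 had no counts in either marrow group.

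All 4 atypical receptors were called in the marrow, with Ackr1 and Ackr2 lower and Ackr3 and Ackr4 higher in AML. Ackr1 went from 108, 94.1 and 132 CPM to 25.1, 5.23 and 1.74 CPM (log2 fold change -3.39 ± 0.80, adjusted p = 0.00549), and -4.99 without AML 1, the AML library with the highest level. The 10 erythroid markers, whose cells also carry Ackr1, held 1.35 to 1.55% of the counts in controls and 0.316, 0.109 and 0.0502% in AML 1, 2 and 3. The order of the 3 AML libraries is the same for Ackr1 and that share, and the part of erythroid RNA in the Ackr1 level was not tested. Exons of Ackr1 overlap those of Cadm3 on the same strand, which had 4.14, 3.77 and 2.64 CPM in controls and 0.129, 0 and 0 CPM in AML. Ackr2, which degrades inflammatory CC chemokines and is best known from lymphatic vessels, had 1.77, 2.81 and 0.719 CPM in controls and 0, 0.0382 and 0.105 CPM in AML (log2 fold change -4.88 ± 0.96, adjusted p = 0.00195). The log2 fold change was -5.94 without AML 3, and limma-voom with quality weights did not call it (adjusted p = 0.167). Ackr3, a scavenger of CXC chemokines on endothelium and stroma, had 18.1, 7.64 and 4.67 and 16.9, 35.1 and 37.3 CPM (log2 fold change 1.55 ± 0.57, adjusted p = 0.0447), and AML 1 lay under control 1. Its log2 fold change was 2.27 without control 1, and the gene was not called without control 2, control 3, AML 2 or AML 3 (adjusted p = 0.139, 0.140, 0.0959 and 0.10). Ackr4, which clears the Ccr7 ligands and Ccl25, had 36.4, 41.1 and 37.9 and 107, 104 and 53.2 CPM (log2 fold change 1.20 ± 0.44, adjusted p = 0.0438). The groups did not overlap, but the call was lost without any 1 of controls 1, 2 and 3 and of AML 1 and 2 (adjusted p = 0.109, 0.0937, 0.104, 0.105 and 0.104). Exons of Ackr4 overlap Acad11 on the opposite strand, which had 15, 14.3 and 11.9 CPM in controls and 27.7, 5.16 and 9.18 CPM in AML.

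Marker sums of other cell types also differed between the marrow groups. The 8 pericyte and smooth muscle markers summed to 0.0183 to 0.0656% of the counts in marrow controls and to 0.314 to 1.05% in AML, and the 6 mast cell and basophil markers to 0.000106 to 0.000332% and 0.00858 to 0.0160%, with Tpsb2 at 0 in both groups. The 8 B cell markers had 0.00171 to 0.00316% and 0.00993 to 0.0225%, with Pax5 and Cd22 at 0 in both groups. B cell markers with counts numbered 5, 6 and 5 in controls 1, 2 and 3. In AML 1, 2 and 3 they numbered 4, 2 and 5. The 10 monocyte and macrophage markers overlapped between the groups (0.00936 to 0.0441% and 0.00625 to 0.0301%), as did the 10 neutrophil markers (0.00219 to 0.0336% and 0.00105 to 0.0185%, Ly6g at 0 in both) and the 9 stromal and osteolineage markers (1.23 to 1.80% and 0.971 to 1.94%). The 10 T and NK cell markers summed to 0.000206 to 0.000440% and 0.000647 to 0.00217%, higher in AML without overlap. Of the 10, however, 6 had counts in controls and only 4 in AML. Cd3e, Cd8a and Ncr1 were at 0 in both marrow groups, Cd4 in controls alone, and Klrb1c, Gzma and Il7r in AML alone. The sum of the 5 lymphatic endothelium markers was lower in AML without overlap (0.00134 to 0.00201% and 0.000338 to 0.00126%). So was that of the 7 megakaryocyte and platelet markers (0.00841 to 0.0116% and 0.00335 to 0.00696%). The part of pericyte, mast cell, B cell, T and NK cell, lymphatic, megakaryocyte and erythroid RNA in the chemokine differences was not tested.

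**Figure D3:**
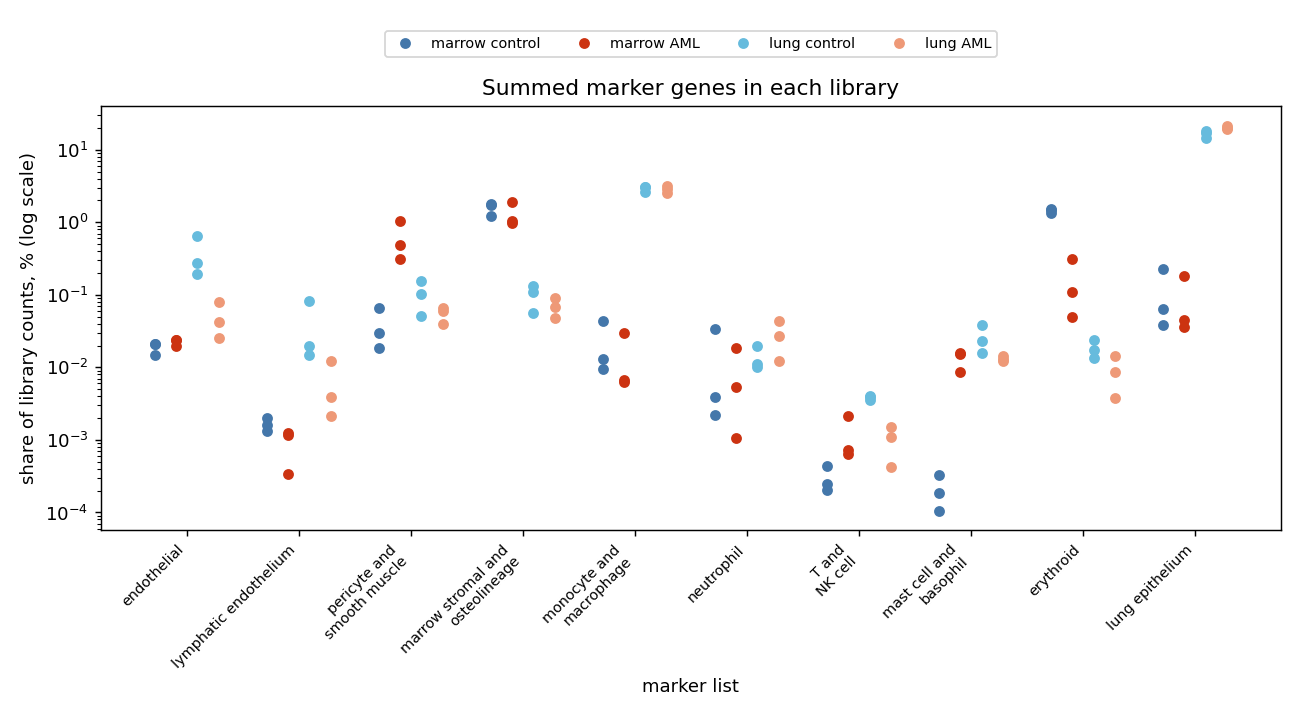
Share of each library's counts (log axis, in %) held by the summed markers of 10 cell types, with 1 point per library and colours for the 4 groups. Pericyte and mast cell sums are higher and the erythroid sum is lower in marrow AML than in marrow controls, and the endothelial, lymphatic and T and NK cell sums are lower in lung AML than in lung controls.

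In the lung, the same comparison of AML with control libraries found few chemokine genes changed, and all of those were lower. By the edgeR quasi-likelihood test 0 of the 43 genes were called higher and 3 lower, against 1.17% and 1.16% of all genes tested. At an unadjusted p under 0.05 there were 2 higher and 11 lower. The share over all genes is not given for that threshold, so these 2 counts are not read as a trend of the chemokine genes. DESeq2 and limma-voom likewise called 0 of the 43 higher, and they called 8 and 11 lower. Over all 18147 genes tested, DESeq2 called 719 higher and 913 lower, and limma-voom 1007 and 1275. The median log2 fold change was -0.54 over the 43 genes, -0.22 over the ligands, -1.0 over the signalling receptors and -2.42 over the 4 atypical receptors, against 0.00 over all genes.

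Ackr4, Cx3cl1 and Ccr8 were the 3 genes called lower. Ccr8 reached 10 counts in the 3 lung controls alone and was kept only through them, so the filter set its direction here. Ackr4 had 7.78, 29.7 and 10.7 CPM in lung controls and 0.553, 0.471 and 0.375 CPM in lung AML (log2 fold change -5.07 ± 0.55, adjusted p = 0.00239), and -4.28 without lung control 2, the highest control. It was called under every setting tried. Cx3cl1 had 79.9, 200.2 and 108 CPM in controls and 26.7, 32.2 and 30.2 CPM in AML (log2 fold change -2.12 ± 0.37, adjusted p = 0.0173), with the AML libraries close together and under every control. Its call was lost without control 2, AML 1, AML 2 or AML 3 (adjusted p = 0.0538, 0.0948, 0.0525 and 0.0816; log2 fold change -1.66 without control 2). Ccr8, a receptor of regulatory and type 2 helper T cells, had 1.17, 0.999 and 0.777 CPM in controls and 2 counts over the AML libraries (ratio 40.7, 95% counting interval 10.9 to 342; adjusted p = 0.0410). Without control 1, 2 or 3 or AML 1, 2 or 3 it was not called (adjusted p = 0.138, 0.151, 0.0867, 0.241, 0.147 and 0.184), with ratios from 29.0 to 58.6.

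Genes of vessels and of T cells, and the ligand Ccl22, had lower values in lung AML that did not pass the test. Ackr2 had 24.7, 102 and 47.7 CPM in controls and 5.44, 17.1 and 6.83 CPM in AML (log2 fold change -2.57 ± 0.66, adjusted p = 0.0683), and Ackr3 60.3, 116 and 46.5 and 12, 25.1 and 9.16 CPM (log2 fold change -2.27 ± 0.58, adjusted p = 0.0673). Ccl21a, made by lymphatic endothelium and counted beside near-identical copies, had 3.0, 44.1 and 22.5 and 0.193, 0.728 and 0.666 CPM (log2 fold change -5.46 ± 1.36, adjusted p = 0.0628). All of these were highest in lung control 2, as was the endothelial sum at 0.647%, against 0.196 and 0.276% in controls 1 and 3. The 5 lymphatic endothelium markers held 0.0150 to 0.0819% of the counts in controls and 0.00216 to 0.0121% in AML. Cxcr6 had 3.35, 2.92 and 2.33 CPM in controls and 0.332, 0.300 and 0.375 CPM in AML (log2 fold change -3.08 ± 0.82, adjusted p = 0.0787), and Ccl22 had 0.739, 0.461 and 1.18 CPM and 2 counts (ratio 33.5, 95% counting interval 8.89 to 283; adjusted p = 0.0612). Ccl5, a product of T and NK cells, had 7.65, 11.9 and 4.96 and 2.21, 0.856 and 2.66 CPM (log2 fold change -2.09 ± 0.64, adjusted p = 0.116). The 10 T and NK cell markers, all with counts in both lung groups, held 0.00355 to 0.00409% in controls and 0.000425 to 0.00149% in AML. The mast cell and basophil sum (0.0160 to 0.0379% and 0.0122 to 0.0143%) and the megakaryocyte and platelet sum (0.0135 to 0.0637% and 0.00404 to 0.00939%) were also lower in AML without overlap, and the lung epithelium sum given above was higher. The part of these sums in the lung differences was not tested.

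Other ligands of the lung, among them the most abundant, Cxcl15, did not pass the test. Cxcl15 had 1697, 2381 and 2122 CPM in controls and 1653, 1708 and 2139.6 CPM in AML (log2 fold change -0.17 ± 0.77, adjusted p = 0.969), Cxcl16 72.1, 71.4 and 90.9 and 79.7, 91.4 and 84.9 CPM (log2 fold change 0.13 ± 0.25, adjusted p = 0.912), and Cxcl2 17.9, 13.4 and 15.2 and 29.9, 19.8 and 14.2 CPM (log2 fold change 0.46 ± 0.47, adjusted p = 0.753). The groups overlapped for each. Ccl2 was at 0.609, 1.61 and 1.52 CPM in controls and 17.6, 2.05 and 0.832 CPM in AML (log2 fold change 2.45 ± 0.95, adjusted p = 0.222), high in AML 1 alone. Cxcl9 had counts in 1 lung control and 1 AML library. Cxcl10 had 0.565, 2.34 and 1.11 and 3.20, 2.05 and 4.54 CPM (log2 fold change 1.28 ± 1.23, adjusted p = 0.728).

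The AML effects of the 2 tissues were then compared directly, by the interaction term of the same model. The effect was more positive in the marrow for 10 of the 43 genes and more negative for 1, against 14.6% and 16.1% of all genes tested. The median difference was 2.25 log2 units over the 43 genes and -0.09 over all genes. Scaling by library totals alone shifted the median of all genes by 0.39 and gave 11 higher and 1 lower chemokine genes, with the share of higher among all calls at 66.6% instead of 47.5%. In the lung comparison that share went from 50.1% to 40.0%.

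**Figure D4:**
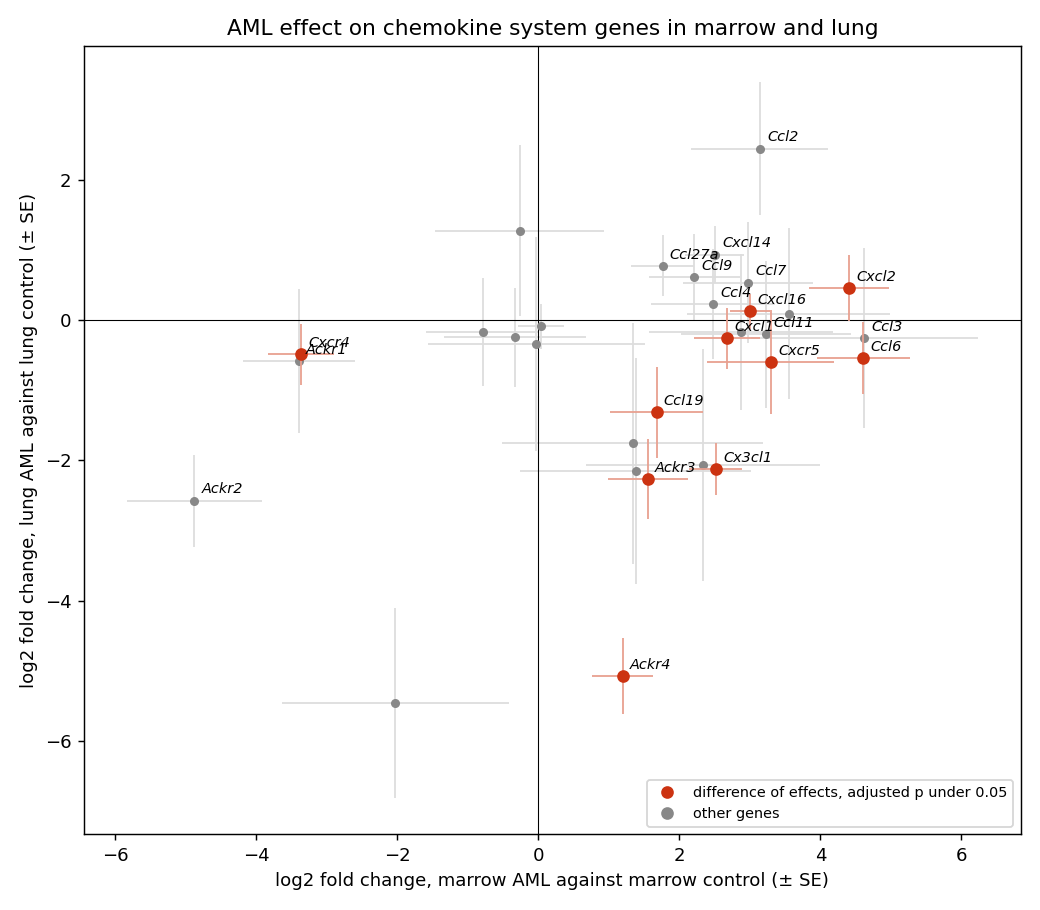
Log2 fold change of AML against control in the marrow (horizontal axis) and the lung (vertical axis) with standard errors, for the 31 chemokine genes with more than 3 counts in each group. The 12 others are left out, and red points are genes whose effects differed at an adjusted p under 0.05. Ackr4, Ackr3 and Cx3cl1 lie at the lower right, higher in marrow AML and lower in lung AML, and Cxcl1, Cxcl2, Cxcl16 and Ccl6 lie to the right near 0 on the lung axis.

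Of the 11 genes, 8 had a positive fitted effect in the marrow and a negative one in the lung, and of these Cx3cl1 and Ackr4 were called in both tissues. For Ackr3 the lung value was -2.27 and did not pass. The differences were 6.27 ± 0.69, adjusted p = 0.000203 for Ackr4, 4.64 ± 0.53, adjusted p = 0.000224 for Cx3cl1 and 3.82 ± 0.81, adjusted p = 0.00493 for Ackr3, in log2 units. Ackr4 was at 5.48 without lung control 2, and Ackr3 at 4.54 without marrow control 1 and 4.47 without lung AML 2. Cxcl1, Cxcl2, Cxcl16 and Ccl6 rose in the marrow and had lung values that were not called, between -0.54 and 0.46. Their differences were 2.94 ± 0.63, adjusted p = 0.00537 for Cxcl1, 3.94 ± 0.72, adjusted p = 0.00230 for Cxcl2, 2.87 ± 0.38, adjusted p = 0.000395 for Cxcl16 and 5.15 ± 0.83, adjusted p = 0.00124 for Ccl6, and that of Cxcl2 was 4.54 without marrow control 3. Cxcr4, the 1 gene with a more negative effect in the marrow, fell there and differed by -2.88 ± 0.62, adjusted p = 0.00544. In the lung it had 5.74, 9.91 and 4.33 CPM in controls and 5.69, 4.75 and 3.79 CPM in AML (log2 fold change -0.49 ± 0.43, adjusted p = 0.694).

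The remaining 3 of the 11 rest on lower counts. Ccl17 had 1.09, 0.538 and 1.07 CPM in lung controls and 0.193, 0.0856 and 0 CPM in lung AML, the opposite order of its marrow groups (adjusted p of the difference = 0.00221). Its fitted difference depends on the 2 counts in the marrow controls and is no measure of size. Cxcr5 differed by 3.89 ± 1.17, adjusted p = 0.0260, was at 5.06 without marrow control 1, and was not called without marrow control 2, lung control 1, lung control 3, lung AML 2 or lung AML 3 (adjusted p = 0.0717, 0.0710, 0.0506, 0.0679 and 0.0765). Ccl19 differed by 2.99 ± 0.92, adjusted p = 0.0298, although neither tissue alone passed, and was not called without marrow control 1, marrow control 2, marrow AML 2, lung control 1, lung control 3, lung AML 1 or lung AML 3 (adjusted p = 0.0683, 0.0733, 0.0513, 0.0838, 0.0597, 0.0698 and 0.0808). Cxcl14, which rose in the marrow, did not pass for the difference (1.57 ± 0.57, adjusted p = 0.0560).

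The last comparison set the control libraries of the 2 tissues side by side. Of the 43 genes, 5 were called higher in marrow controls and 28 lower, against 29.4% and 34.7% of all genes. The median log2 fold change of marrow against lung was -3.56 over the 43 genes, -3.07 over the ligands and -4.26 (-4.18 with bounds) over the signalling receptors, against -0.20 over all genes. The lung libraries differed in cell markers too. The monocyte and macrophage markers summed to 2.62 to 3.10% of the counts in lung controls against 0.00936 to 0.0441% in marrow controls, and their part in the differences was not tested.

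The 5 genes higher in marrow controls were Ackr1 (8.04 ± 1.03, adjusted p = 4.75e-05), Ccl25 (1.69 ± 0.33, adjusted p = 0.000968), Cxcr4 (1.61 ± 0.44, adjusted p = 0.00728), Cxcl14 (1.60 ± 0.41, adjusted p = 0.00519) and Ackr4 (1.26 ± 0.44, adjusted p = 0.0254), as log2 fold changes. Ackr1 was under 1 CPM in each of the 3 lung controls (0.217, 0.845 and 0.185 CPM), and its value was 9.06 without lung control 2. Ackr4 was at 2.04 without lung control 2 and was not called without marrow control 2 or 3 or lung control 1 or 3 (adjusted p = 0.0634, 0.0524, 0.0896 and 0.10). The atypical receptors were thus split, with Ackr2 (-5.03 ± 0.74, adjusted p = 0.000137) and Ackr3 (-2.87 ± 0.59, adjusted p = 0.00139) lower in the marrow. Without lung control 2 the value of Ackr2 was -4.37, and without marrow control 1 that of Ackr3 was -3.61.

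Lower in marrow were both the lung epithelial ligands and ligands of leukocytes and vessels. Cxcl15 differed by -7.39 ± 1.02, adjusted p = 8.52e-05 and Cxcl17 by -6.94 ± 0.97, adjusted p = 9.44e-05, and without marrow control 2 by -8.97 and -8.24. Cxcl16 (-4.99 ± 0.31, adjusted p = 4.44e-07), Ccl6 (-7.01 ± 0.71, adjusted p = 8.87e-06), Ccl5 (-6.79 ± 0.84, adjusted p = 3.53e-05) and Cx3cl1 (-2.79 ± 0.38, adjusted p = 7.93e-05) did not move by over 1.5 times when any 1 library was left out. Cxcl2 differed by -5.22 ± 0.59, adjusted p = 1.87e-05, and by -5.83 without marrow control 3. Among receptors, Ccr6 and Ccr8, without counts in marrow controls, were at least 17.3-fold and 18.8-fold lower there (adjusted p = 0.00136 and 0.00109). Without any 1 of the marrow controls these bounds came down to between 10.9 and 13.4, since fewer libraries raise the floor. Ccr8 was kept only through its counts in the lung controls, so the filter set its direction in this comparison too. Ccr7, the receptor of Ccl19 and Ccl21a on dendritic and T cells, was lower by -6.52 ± 0.94, adjusted p = 0.000114, by -5.93 without marrow control 1 and by -8.23 without marrow control 3. Calls were lost for Ccl9 without marrow control 2, lung control 1 or lung control 2 (adjusted p = 0.0809, 0.0510 and 0.0879), for Cxcl1 without marrow control 2 or lung control 3 (0.0522 and 0.0567), and for Ccl19 without marrow control 1 or 2 or lung control 1 or 3 (0.0909, 0.105, 0.127 and 0.0672). They were lost for Cxcl3 without marrow control 2 or 3 or lung control 2 (0.0808, 0.0752 and 0.0750) and for Cxcr3 without marrow control 2 or 3 (0.0541 and 0.0522).

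Other genes of the chemokine system were called in both directions in marrow AML, where 20.4% of all genes were called higher and 23.5% lower. Of 12 tested inducers of chemokine genes (cytokines and their transcription factors), 5 were called higher and 2 lower in marrow AML. Their list median was 0.34 (0.39 with bounds, leaving out genes at or under the floor in both groups). Il4, a type 2 cytokine, averaged 0.607 to 27.5 CPM from control to AML (5.5 ± 0.78, adjusted p = 0.000295, log2 fold change), and 6.20 without marrow control 2. Irf7, an interferon regulator, fell from 76.0 to 24.2 CPM (-1.65 ± 0.28, adjusted p = 0.000810). Of the 24 signal transducers of chemokine receptors, 7 were higher and 7 lower (median 0.43). Rgs16 and Rgs2, which shorten G protein signals, rose by 4.48 ± 0.42, adjusted p = 2.74e-05 and 3.46 ± 0.45, adjusted p = 0.000173, and Gnb4, a G protein subunit, by 1.94 ± 0.19, adjusted p = 3.76e-05. Prex1, a Rac activator downstream of these receptors, changed by -2.16 ± 0.37, adjusted p = 0.000839. Of 11 further tested genes of the system, 1 was higher and 2 lower (median -0.63). Mif, a cytokine that also binds Cxcr4, rose (1.06 ± 0.21, adjusted p = 0.00218), Adam10, a protease that sheds Cx3cl1 and Cxcl16, fell (-1.92 ± 0.25, adjusted p = 0.000198), and Xcr1, a receptor of dendritic cells, was at least 14.9-fold lower, with 0 counts in AML (adjusted p = 0.00302).

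In lung AML, 1 of the 12 inducers was called higher and 0 lower, 1 of the 24 transducers higher and 1 lower, and 1 of the 11 further genes lower, and each of these calls was lost without 1 or more libraries. Over all genes, 1.17% were called higher and 1.16% lower. Ccrl2, which presents chemerin on endothelium, changed in the AML lung by -1.15 ± 0.24, adjusted p = 0.0337 on the log2 scale and was not called without lung control 2, AML 1, AML 2 or AML 3 (adjusted p = 0.128, 0.125, 0.106 and 0.161). Gnai2, the inhibitory G protein subunit that these receptors couple to, had -1.06 ± 0.22, adjusted p = 0.0319 and was not called without the same 4 libraries (adjusted p = 0.108, 0.165, 0.0633 and 0.140). Adam10 differed between the tissues by -1.93 ± 0.35, adjusted p = 0.00222, Gnb4 by 2.53 ± 0.27, adjusted p = 0.000178 and Irf7 by -2.09 ± 0.39, adjusted p = 0.00255 in the AML effect.

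The 15 genes of the name rule left out had too few counts. Ccl21b, Ccl21d, Ccl26 and Ccl27b were at 0 in every library, and Ccl1, Ccr4 and Cxcl11 never passed 4 counts. Ccl24 reached 90 counts in 1 library, Cxcl5 41, Cxcr1 39, Ccl12 22, Ccr10 16, Ccl20 15, and Ccl28 and Ccr3 13 each.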

How the data were processed

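Raw read counts per gene symbol, 1 table per library, were deposited by the authors without normalisation. The submitters' processing notes name bcl2fastq, STAR and the mm10 build, the labels name a low-input library kit, and the file names mark the counts as unstranded. Tool versions, the annotation and any filter on reads were not given in the sources used here. Libraries were grouped by tissue and transplant from the labels. The analysis used edgeR 4.0.16 under R 4.3.3. Genes were filtered by filterByExpr (count 10, total 15), libraries were scaled by TMM (factors 0.865 to 1.25), and 1 robust quasi-likelihood fit of the 12 libraries gave every test, with Benjamini-Hochberg adjustment over the 18147 genes tested. All 43 genes with at least 10 counts in 3 libraries were tested. A gene with 0 counts in a group was compared using 3 counts in the whole group as its floor, and for 1 to 3 counts the ratio stands with its 95% counting interval. These intervals cover counting error only. Total counts were 12.8 to 39.2 M per library, and no library pair agreed within sampling noise. Scripts were tested on simulated data. Exon lengths, positions and overlaps came from the GENCODE annotation of GRCm38, and promoters from RefSeq, where 43 of the 58 symbols were found. Protein sequences were not used here. Alternatives were other scalings, filters and tests (DESeq2 1.42.0, limma 3.58.1), fits of the compared libraries only, leaving out each library, and a replicate block. The genes, lists, naming rule and comparisons were chosen with earlier results of these data known. Any kept gene of the name rule could be named, with full statistics for called ones, and of the other lists up to 4 called genes with the smallest p per comparison. Overlapping genes were named after their values were seen, and some symbols of the name rule are not reported here by name, although counts and medians cover all 43 genes.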

Additional observations from a re-analysis of the deposited data

Results flagged for a closer look

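For 11 genes the AML effect differed between marrow and lung by the interaction test of edgeR. The log2 difference, marrow minus lung, was 6.27 for Ackr4, 4.64 for Cx3cl1, 2.87 for Cxcl16, 5.15 for Ccl6, 3.94 for Cxcl2, 2.94 for Cxcl1, 3.82 for Ackr3, -2.88 for Cxcr4, 3.89 for Cxcr5 and 2.99 for Ccl19. For Ccl17 the fitted value was 8.81, which depends on how the 2 counts in the marrow controls are smoothed and was 11.83 without marrow control 3 and 9.91 without lung AML 1. Of the 11, 9 kept their call under every setting tried, and the exceptions were Cxcr5 and Ccl19.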

How the results depend on the processing

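The counts of chemokine genes called in marrow AML (17 higher, 6 lower) were 11 and 2 with limma-voom, and 3 lower with only the 6 libraries compared. Calls over all genes in marrow AML also went down with limma-voom, from 3694 higher and 4263 lower to 2764 and 3589. Leaving out each library in turn gave 10 to 17 higher and 3 to 7 lower. For fits without a library, the calls over all genes are not given here. In the lung (0 higher, 3 lower) DESeq2 called 8 lower, limma-voom 11 and a fit of the 6 compared libraries 8, and dropping 1 library at a time gave 1 to 2 lower and 0 higher throughout. For the difference of the effects (10 higher, 1 lower) limma-voom called 2 lower, and leaving out a library gave 8 to 13 higher and 1 to 3 lower. There limma-voom called 2460 of all genes higher and 3168 lower, against 2642 and 2925. Between the control tissues (5 higher, 28 lower) the range was 4 to 6 and 23 to 29. The cause of these changes was not tested. Over all genes tested, lung AML had 212 higher and 211 lower calls, against 719 and 913 with DESeq2, 1007 and 1275 with limma-voom and 545 and 694 with the compared libraries only. With the compared libraries only, 2543 genes were lower in marrow AML, against 4263. With library totals alone, 1756 were lower for the difference of the effects, against 2925. One value turned its sign together with a call: the difference of the AML effects in Ccr9, 0.30 and not called, was -7.40 without marrow AML 1 (adjusted p = 0.0175; 0.0175 to 0.99994 over the libraries left out). That library was the only marrow AML library with counts of Ccr9. In 89 further alternatives the sign of a value that was called neither way changed (41 results), and these carry no direction. Replicate numbers did not pair the libraries (correlations of same-numbered libraries from -0.16 to 0.18). With a replicate block the counts were 15 higher and 5 lower in the marrow, 0 and 4 in the lung, 9 and 1 for the difference and 5 and 28 between tissues. Over all genes that block gave 3267 higher and 3986 lower in the marrow and 144 and 187 in the lung. It gave 2278 and 2646 for the difference and 5155 and 6100 between tissues. In libraries of 12.8 to 39.2 M counts, receptors with a few counts per group, such as Cxcr6 and Cxcr3, are at the limit of what can be compared.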
